A study of Arabidopsis thaliana with 12 samples.

Results

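The genes described here are the 10 loci of Arabidopsis thaliana that encode enzymes of jasmonate conjugation and turnover, JAR1, CYP94B1, CYP94B3, CYP94C1, ILL6, IAR3, JOX2, JOX3, JOX4 and ST2A. They were selected by locus identifier among the 33602 genes of the deposited count tables, and all 10 had enough counts to be tested. mRNA was sequenced from whole seedlings of 2 genotypes, ixr1-1 and the wild type Col-0, which were grown in shaken liquid medium with sucrose and were 6 days old at treatment. ixr1-1 is an isoxaben-resistant line in the Col-0 background with a point mutation in CESA3, a gene of the cellulose synthase of primary walls. The herbicide isoxaben inhibits that enzyme's work. Each genotype was kept for 1 h in fresh medium with 600 nM isoxaben or with the same amount of its solvent DMSO. This gave 4 groups of 3 libraries, namely ixr1-1 isoxaben, ixr1-1 DMSO, Col-0 isoxaben and Col-0 DMSO. Both treatments drew their seedlings from the same flasks, per the labels, which do not tie library numbers to flasks. No group was without DMSO, and the transfer to fresh medium was common to all of them. A point mutation does not have to change the level of its own transcript, so the counts do not check the genotype labels.

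Jasmonic acid is a wound and defence hormone that acts after conjugation to isoleucine. JAR1 makes that conjugate, JA-Ile, which is bound by the receptor COI1 together with a JAZ repressor and leads to destruction of the repressor. The cytochromes P450 CYP94B1 and CYP94B3 hydroxylate JA-Ile, and CYP94C1 oxidises the hydroxylated form on to a carboxylated one. The amidohydrolases ILL6 and IAR3 split the conjugates, and IAR3 also releases auxin from its alanine conjugate. The dioxygenases JOX2, JOX3 and JOX4 hydroxylate jasmonic acid before it can be conjugated, and the sulfotransferase ST2A adds a sulfate to the hydroxylated acid. Many genes of this turnover set are themselves induced by jasmonate in Arabidopsis.

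The P450 genes CYP94C1, CYP94B1 and CYP94B3 are shown by the 300 bases before their annotated starts. They were picked because CYP94C1 differed between the genotypes in the opposite sense to the estimates of CYP94B1 and CYP94B3. The estimates of CYP94B1 and CYP94B3 were not called in the main fit of either genotype comparison, so an opposite change of these genes was not shown. Letters are those of the strand of the gene, 5′ to 3′, from the RefSeq sequence TAIR10.1, and capitals mark CACNTG, a form of the element bound by MYC2, the main transcription factor of the jasmonate response. CYP94C1 lies on the plus strand and its window is chr2:11808979-11809278. CYP94B1 (chr5:25410726-25411025) and CYP94B3 (chr3:17976775-17977074) lie on the minus strand.
CYP94C1: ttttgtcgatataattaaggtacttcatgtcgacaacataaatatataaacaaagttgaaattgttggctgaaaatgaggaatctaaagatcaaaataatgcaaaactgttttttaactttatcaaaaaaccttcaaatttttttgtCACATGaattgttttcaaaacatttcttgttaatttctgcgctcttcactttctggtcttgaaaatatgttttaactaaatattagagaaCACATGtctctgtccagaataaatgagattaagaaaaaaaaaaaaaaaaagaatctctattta
CYP94B1: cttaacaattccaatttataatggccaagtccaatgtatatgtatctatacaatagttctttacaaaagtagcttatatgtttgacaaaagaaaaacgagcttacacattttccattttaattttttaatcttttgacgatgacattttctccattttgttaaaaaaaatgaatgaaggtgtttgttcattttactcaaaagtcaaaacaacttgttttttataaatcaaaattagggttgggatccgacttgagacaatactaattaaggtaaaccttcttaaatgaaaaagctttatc
CYP94B3: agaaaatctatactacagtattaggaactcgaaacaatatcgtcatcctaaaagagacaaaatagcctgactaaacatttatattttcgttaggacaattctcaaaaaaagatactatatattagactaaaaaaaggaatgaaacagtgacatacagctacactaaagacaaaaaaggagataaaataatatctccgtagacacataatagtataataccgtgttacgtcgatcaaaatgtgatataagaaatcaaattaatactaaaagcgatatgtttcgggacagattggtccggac
CACNTG, read on both strands and including CACGTG, occurred in the windows of 3 of the 10 genes and in 30.0% of 27443 windows of all genes. The CYP94C1 window held it at 153 and 63 bases before the start, the JAR1 window at 138 and the JOX2 window at 62. The G-box CACGTG itself occurred in none of the 10 windows and in 7.1% of all windows, and AACGTG on either strand in the JOX3 window, at 48 bases, and in 8.7% of all windows. The form CACNTG was added after the windows had been read. Positions count from the RefSeq starts, which differ from the gene starts of the deposited tables given with the genes below. These matches describe letters in a window and do not show binding.

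Library totals ran from 8521491 to 20658035 counts, and levels are given as CPM scaled with TMM factors. Replicates differed by more than sampling noise, with a chi-square per degree of freedom of 2.81 to 6.97 for each pair. Whether replicates were separate cultures is not given in the labels, and p-values therefore rest on a spread that may be technical. Some marker genes differed between the genotypes. The summed level of 4 shoot markers was 17479.5 to 19367.9 CPM in ixr1-1 isoxaben and 18544.9 to 21719.4 CPM in ixr1-1 DMSO, against 22513.2 to 25090.5 CPM in Col-0 isoxaben and 23501.7 to 24080.8 CPM in Col-0 DMSO. The 7 root markers summed to 146 to 150, 142 to 152, 136 to 146 and 137 to 150 CPM in the same order of groups. SCR alone gave group means of 72.7 to 78.4 CPM, so the sum says little of the others. COBL9 had 6.08 to 7.34 CPM in Col-0 isoxaben, against 11.7 to 12.8 CPM in Col-0 DMSO. Its means in ixr1-1 were 10.4 CPM in isoxaben and 9.87 CPM in DMSO. NRT2.1 averaged 2.68 CPM in ixr1-1 DMSO and 5.61 CPM in Col-0 DMSO. The 8 seed storage and oil body genes, markers of embryo tissue, summed to 105 to 631 CPM in ixr1-1 isoxaben and 209 to 699 CPM in ixr1-1 DMSO, against 0.229 to 0.976 and 0.545 to 1.26 CPM in the Col-0 groups. In Col-0, CRU3 was at 0 counts in all libraries, and CRU2, SESA3 and OLEO1 were at 0 in the isoxaben libraries. The shoot and seed sums thus differed with the genotype, and COBL9 with the treatment in Col-0. The part of marker differences in the genotype and treatment comparisons was not tested.

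Levels of the 10 genes spanned a wide range when set per kilobase of exon, the only scale on which different genes are compared here. In Col-0 DMSO the order was IAR3 with 32.9 ± 0.76, JAR1 with 27.7 ± 0.35 and JOX2 with 17.0 ± 2.5 CPM per kb (SD, n = 3). The libraries of these 3 genes did not overlap with the next in the order. ST2A, ILL6, CYP94B1, CYP94C1 and JOX4 followed with means of 6.77, 6.21, 5.32, 4.39 and 3.08 CPM per kb, and each of these 5 overlapped with its neighbour among them. CYP94B3 had 1.92 and JOX3 0.618 CPM per kb, both clear of their neighbours. The carboxylating P450 CYP94C1 was at rank 7 in both Col-0 groups and at rank 4 in both ixr1-1 groups, at 10.8 ± 1.8 CPM per kb in ixr1-1 isoxaben and 9.41 ± 1.5 in ixr1-1 DMSO, where it overlapped neither neighbour. In ixr1-1 the libraries of JAR1 and JOX2 overlapped, as did those of ILL6 and the gene below it. JOX3 and CYP94B3 held the lowest places in all 4 groups, in reverse order in ixr1-1 isoxaben, and their libraries overlapped in both ixr1-1 groups.

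**Figure D1:**
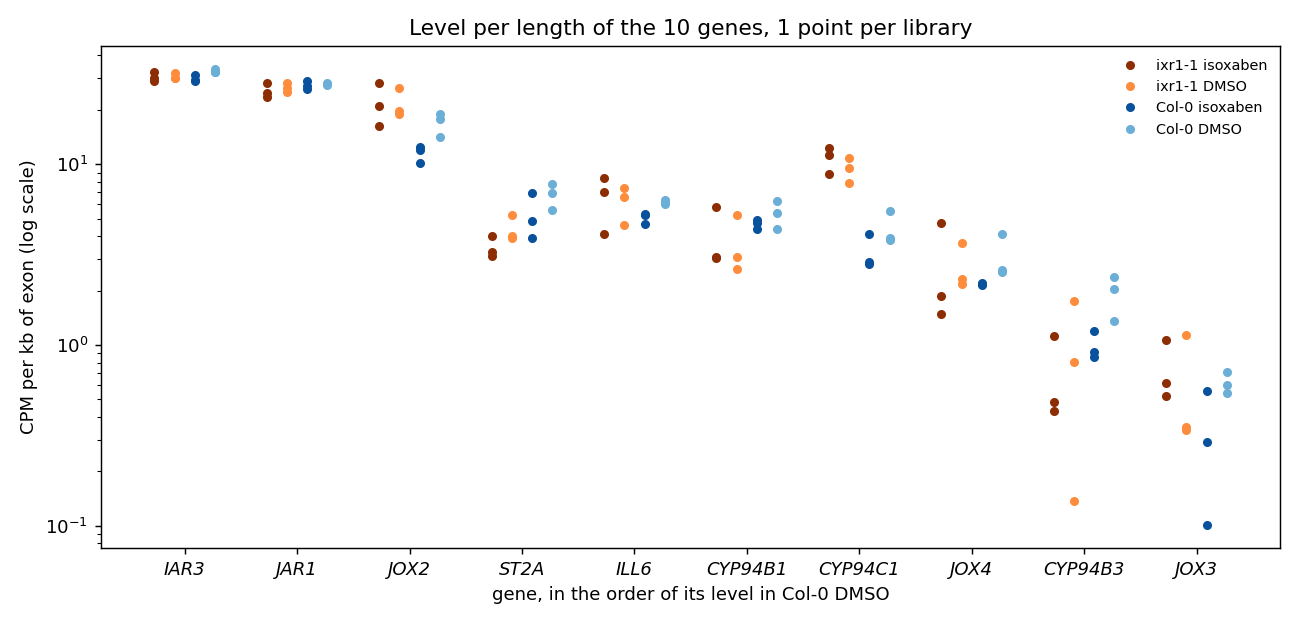
Level of each gene in CPM per kb of exon on a log axis, 1 point per library, with genes ordered by their mean in Col-0 DMSO and colours for the 4 groups. IAR3 and JAR1 lie between 23.7 and 33.7 CPM per kb in every group, and all ixr1-1 points of CYP94C1 lie above all its Col-0 points.

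The comparison of ixr1-1 with Col-0 in DMSO asks how the line differs without the inhibitor. CYP94C1 was 2.17-fold higher in ixr1-1 than in Col-0, and ST2A was lower, while the JA-Ile synthetase JAR1, the amidohydrolases and the JOX genes gave no call. With edgeR's quasi-likelihood test and a Benjamini-Hochberg adjusted p under 0.05, 2 of the 10 genes were called, against 17.2% of the 20379 genes tested, so this share is near the background. By direction, 1 was higher, against 9.79% of all genes, and 1 lower, against 7.42%. The median log2 fold change of the 10 was -0.07, and that of all genes 0.00. The libraries of 3 of the 10 genes, CYP94C1, IAR3 and ST2A, did not overlap between genotypes, against 33.7% of all genes. Since whole seedlings were sequenced, fewer cells of a type and less RNA per cell cannot be told apart.

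CYP94C1 (AT2G27690, chromosome 2, 11809306 to 11811215, 1 exon) had 15.1, 18.1 and 20.7 CPM in ixr1-1 DMSO, against 7.43, 10.5 and 7.23 CPM in Col-0 DMSO. The lowest ixr1-1 library lay above the highest Col-0 library. The log2 fold change was 1.12 ± 0.17 (SE, adjusted p = 0.000461, edgeR), and at least 1.01 with any 1 of the 12 libraries left out. Within ixr1-1, CYP94C1 and the summed seed storage markers were both lowest in the libraries numbered 1, where those markers stood at 105 CPM in isoxaben and 209 CPM in DMSO. Their part in the result was not tested.

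ST2A (AT5G07010, chromosome 5, 2174678 to 2176106, 1 exon) had 5.61, 7.49 and 5.75 CPM in ixr1-1 DMSO, against 9.89, 11.2 and 7.97 CPM in Col-0 DMSO. The groups did not overlap, by a small margin between the highest ixr1-1 and the lowest Col-0 library. The log2 fold change was -0.57 ± 0.19 (adjusted p = 0.0482, edgeR). The call did not survive the loss of Col-0 DMSO 1 (adjusted p = 0.120) or 2 (0.160), Col-0 isoxaben 3 (0.0605), ixr1-1 DMSO 1 (0.133) or 3 (0.137), or ixr1-1 isoxaben 1 (0.0577) or 3 (0.0614). It also ended with library size as the only scaling (0.0749), with a filter of 1 CPM in 6 libraries (0.0504) and without both ixr1-1 libraries numbered 1 (0.152).

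CYP94B1 (AT5G63450, chromosome 5, 25408895 to 25410573, 1 exon) and CYP94B3 (AT3G48520, chromosome 3, 17974977 to 17976670, 1 exon), the hydroxylases that act on JA-Ile, were not called. CYP94B1 had 4.44, 8.78 and 5.16 CPM in ixr1-1 DMSO, against 9.00, 10.5 and 7.34 CPM in Col-0 DMSO. CYP94B3 had 0.234, 2.96 and 1.36 CPM in ixr1-1 DMSO, against 4.02, 3.44 and 2.31 CPM in Col-0 DMSO. In both genes ixr1-1 library 2 reached into the Col-0 range and the other ixr1-1 libraries lay below it. The log2 fold changes were -0.43 ± 0.28 for CYP94B1 (adjusted p = 0.332) and -0.81 ± 0.48 for CYP94B3 (adjusted p = 0.290). Without ixr1-1 DMSO library 2, CYP94B3 was called at -1.92 (adjusted p = 0.0226, edgeR). Without both ixr1-1 libraries numbered 2, an alternative added after the values were seen, CYP94B1 was called at -0.88 (adjusted p = 0.00286) and CYP94B3 at -1.92 (adjusted p = 0.00587). CYP94B3 rested on 2 to 62 counts per library, so its level is known with little precision.

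JAR1 (AT2G46370, chromosome 2, 19033741 to 19036659, 5 exons) had 64.0, 71.2 and 67.2 CPM in ixr1-1 DMSO, against 70.4, 69.7 and 71.4 CPM in Col-0 DMSO. The groups overlapped, and the 95% interval of the log2 fold change ran from -0.21 to 0.09 (adjusted p = 0.622, edgeR). IAR3 (AT1G51760, chromosome 1, 19199419 to 19201642, 5 exons) had 53.6, 50.7 and 50.2 CPM in ixr1-1 DMSO, against 56.8, 54.6 and 54.6 CPM in Col-0 DMSO. Its groups did not overlap, yet the log2 fold change of -0.11 ± 0.06 was not called (adjusted p = 0.287). ILL6 (AT1G44350, chromosome 1, 16834210 to 16838286, 5 exons) averaged 12.6 ± 2.9 CPM in ixr1-1 DMSO and 12.5 ± 0.34 CPM in Col-0 DMSO (SD, n = 3 each). The ixr1-1 libraries of ILL6 lay on both sides of the Col-0 ones. The dioxygenase genes JOX2 (AT5G05600, chromosome 5, 1672120 to 1674739), JOX3 (AT3G55970, chromosome 3, 20766735 to 20769324) and JOX4 (AT2G38240, chromosome 2, 16012535 to 16014753), of 3 exons each, had log2 fold changes of 0.39 ± 0.20, 0.23 ± 0.45 and -0.08 ± 0.37 (adjusted p = 0.235, 0.789 and 0.917, edgeR). The groups of each JOX gene overlapped. Coordinates are those of the deposited tables, with a build not given in the sources used here.

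**Figure D2:**
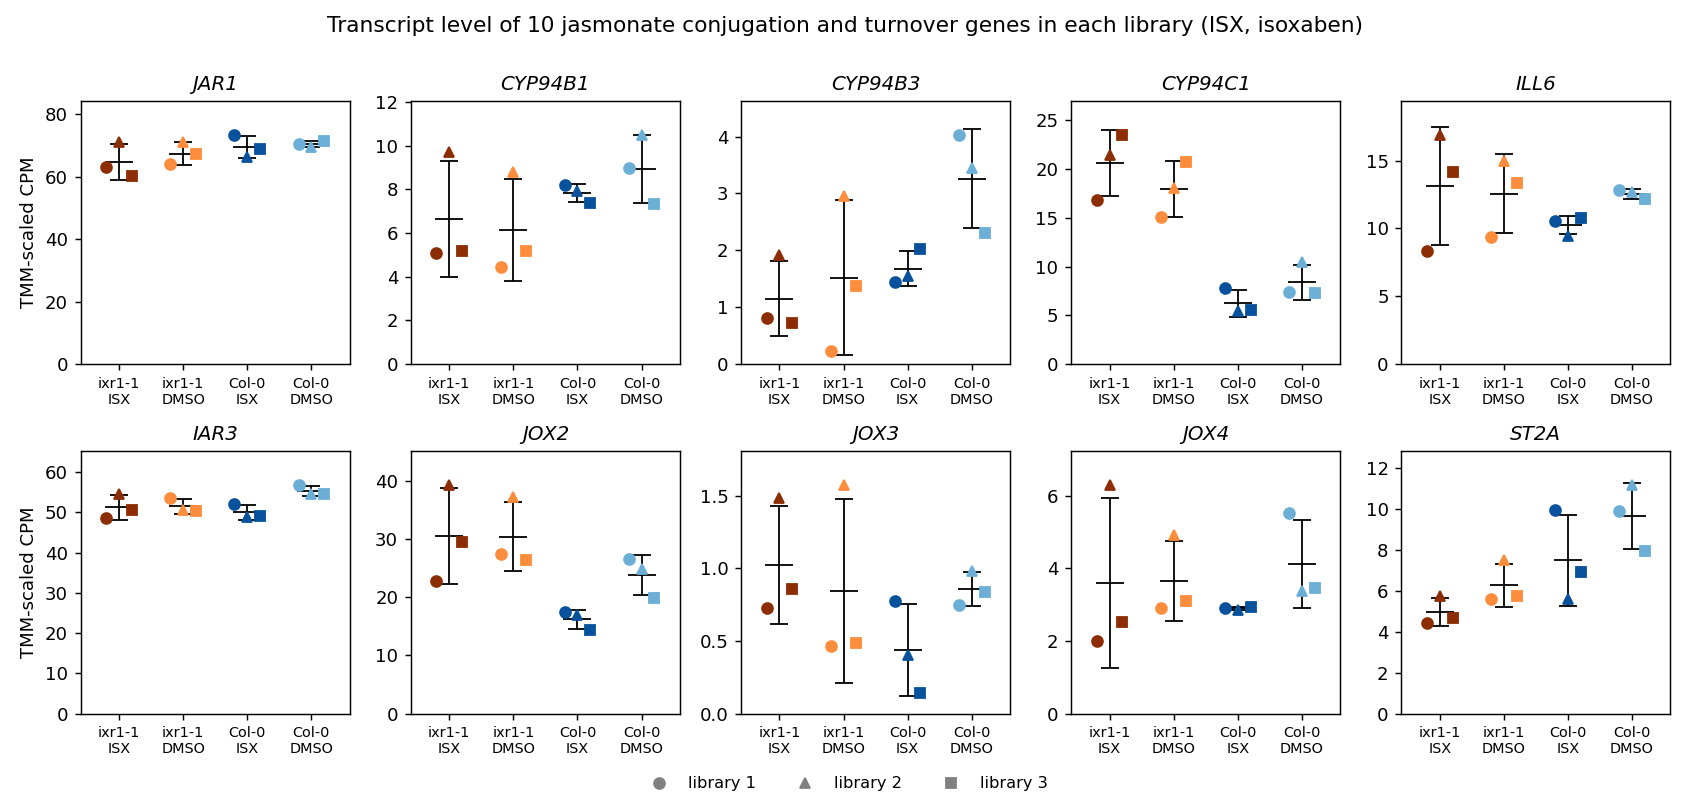
TMM-scaled CPM of each gene in each library by group, with symbols for the library number, and the group mean ± SD (n = 3) as bars. CYP94C1 lies between 15.1 and 23.5 CPM in the 6 ixr1-1 libraries, above the 5.39 to 10.5 CPM of the 6 Col-0 libraries, and the triangles of library 2 are the highest ixr1-1 points of CYP94B1, CYP94B3, ILL6, JOX2, JOX3, JOX4, ST2A and JAR1.

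The same genotype comparison in isoxaben gave CYP94C1 3.40-fold and JOX2 1.90-fold higher in ixr1-1 than in Col-0, and no gene lower. Called genes were 2 of 10, both higher, against 12.8% of all genes in either direction and 6.92% higher. The median log2 fold change of the 10 was 0.19, and that of all genes 0.00. The libraries of 2 of the 10 genes did not overlap, against 30.6% of all genes. The ixr1-1 and Col-0 libraries used here are other libraries than those of the DMSO comparison, but all 12 share 1 estimate of the spread.

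CYP94C1 had 16.8, 21.5 and 23.5 CPM in ixr1-1 isoxaben, against 7.82, 5.39 and 5.51 CPM in Col-0 isoxaben. The lowest ixr1-1 library stood above the highest Col-0 library by a wide margin. CYP94C1 differed by a log2 fold change of 1.76 ± 0.18 (adjusted p = 3.69e-05, edgeR), and between 1.66 and 1.93 with any 1 library left out. The seed storage sums of 105, 413 and 631 CPM in ixr1-1 isoxaben libraries 1, 2 and 3 had the same order as CYP94C1, whereas those of 209, 699 and 589 CPM in ixr1-1 DMSO did not, and their part was not tested.

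JOX2, one of the dioxygenases that inactivate jasmonic acid, had 22.7, 39.2 and 29.5 CPM in ixr1-1 isoxaben, against 17.4, 16.9 and 14.3 CPM in Col-0 isoxaben. The groups did not overlap, with ixr1-1 library 2 far above the others. JOX2 differed by a log2 fold change of 0.93 ± 0.21 (adjusted p = 0.0188, edgeR). The call ended without Col-0 isoxaben 2 (adjusted p = 0.0576), without Col-0 isoxaben 3 (0.0748) and without ixr1-1 isoxaben 3 (0.0503). JOX3, at 2 to 33 counts per library, had 0.724, 1.49 and 0.859 CPM in ixr1-1 isoxaben, against 0.773, 0.401 and 0.139 CPM in Col-0 isoxaben. Its groups overlapped, and the log2 fold change of 1.34 ± 0.54 was not called (adjusted p = 0.113). JOX4 had 1.99, 6.30 and 2.51 CPM in ixr1-1 isoxaben, against 2.90, 2.87 and 2.93 CPM in Col-0 isoxaben. The ixr1-1 libraries of JOX4 lay on both sides of the narrow Col-0 range (log2 0.34 ± 0.40, adjusted p = 0.646).

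ST2A had 4.44, 5.74 and 4.69 CPM in ixr1-1 isoxaben, against 9.95, 5.62 and 6.90 CPM in Col-0 isoxaben. The groups overlapped in 1 library of each, and the log2 fold change of -0.55 ± 0.21 was not called (adjusted p = 0.0905), though it was without Col-0 isoxaben 2 (-0.74, adjusted p = 0.0345, edgeR). ILL6, which splits JA-Ile, had 8.33, 16.9 and 14.1 CPM in ixr1-1 isoxaben, against 10.5, 9.46 and 10.7 CPM in Col-0 isoxaben. Library 1 of ixr1-1 was the lowest of the 6 and the other ixr1-1 libraries the highest. The log2 fold change was 0.38 ± 0.21 (adjusted p = 0.281), and without ixr1-1 isoxaben 1 it was 0.60 and called (adjusted p = 0.0129, edgeR). CYP94B1 and CYP94B3 had log2 fold changes of -0.22 ± 0.28 and -0.53 ± 0.59, JAR1 -0.10 ± 0.07 and IAR3 0.04 ± 0.06, none of them called. Without both ixr1-1 libraries numbered 2, CYP94B1 was called in isoxaben as well (-0.61, adjusted p = 0.0315, edgeR).

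Isoxaben was set against DMSO in Col-0 to see the response of the sensitive wild type after 1 h. None of the 10 genes passed the threshold, but all 10 log2 fold changes were below 0, with a median of -0.42 where that of all genes was 0.00. They ran from -1.06 for JOX3 to -0.02 for JAR1, and JAR1 stood at 0.01 without Col-0 isoxaben 2. edgeR and DESeq2 each called 0 of the 10, against 0.78% of all genes called by edgeR and 0.167% called lower, and 4 of the 10 had an unadjusted p under 0.05 in edgeR, against 6.81% of all genes. The smallest adjusted p was 0.603 in edgeR's fit of all 12 libraries without a block, and some other fits called JOX2, as given below. In 5 of the 10 genes, CYP94B3, ILL6, IAR3, JOX2 and JOX4, all 3 isoxaben libraries lay below all 3 DMSO libraries, against 5.97% of all genes lower without overlap and 12.8% in either direction. The 10 genes deviated together between replicates, so their signs are not independent of each other.

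JOX2 had 17.4, 16.9 and 14.3 CPM in Col-0 isoxaben, against 26.5, 24.9 and 19.9 CPM in Col-0 DMSO. The groups did not overlap, and library 3 was the lowest in each. The log2 fold change was -0.55 ± 0.21 (adjusted p = 0.603, edgeR). The fit pools the spread of both genotypes, and the SD of JOX2 was 8.30 and 5.93 CPM in ixr1-1 isoxaben and DMSO, against 1.65 and 3.44 CPM in Col-0 isoxaben and DMSO. With the Col-0 groups alone in the fit the change was -0.55 ± 0.11 and was called (adjusted p = 0.0251, edgeR). Without both ixr1-1 libraries numbered 2 it was called as well (adjusted p = 0.0401). A block by flask, which takes each number of a genotype as 1 flask, also called it, at -0.55 ± 0.09 (adjusted p = 0.000976, edgeR). The labels do not tie the numbers to flasks. CYP94B3 had 1.45, 1.55 and 2.02 CPM in Col-0 isoxaben, against 4.02, 3.44 and 2.31 CPM in Col-0 DMSO. Its groups were close at library 3 of each, and the log2 fold change was -0.93 ± 0.48 (adjusted p = 0.849).

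CYP94C1 had 7.82, 5.39 and 5.51 CPM in Col-0 isoxaben, against 7.43, 10.5 and 7.23 CPM in Col-0 DMSO, which overlapped. Its log2 fold change was -0.45 ± 0.20 (adjusted p = 0.679, edgeR). IAR3 had 52.1, 48.8 and 49.1 CPM in Col-0 isoxaben, against 56.8, 54.6 and 54.6 CPM in Col-0 DMSO, a small gap without overlap (log2 -0.15 ± 0.06, adjusted p = 0.633). ILL6 averaged 10.2 ± 0.69 CPM in Col-0 isoxaben and 12.5 ± 0.34 CPM in Col-0 DMSO (SD, n = 3 each), again without overlap (log2 -0.30 ± 0.21). JOX4 averaged 2.90 ± 0.032 CPM in Col-0 isoxaben and 4.12 ± 1.2 CPM in Col-0 DMSO. ST2A averaged 7.49 ± 2.2 CPM in Col-0 isoxaben and 9.68 ± 1.6 CPM in Col-0 DMSO. The log2 fold change of ST2A was -0.40 ± 0.18 (adjusted p = 0.715). For JAR1 the 95% interval of the log2 fold change ran from -0.17 to 0.12, and for CYP94B1 from -0.77 to 0.41.

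In ixr1-1, isoxaben against DMSO gave no gene past the threshold. edgeR called 0 of the 10 and 0% of all genes, DESeq2 called 0 of the 10, and none of the 10 had an unadjusted p under 0.05, against 3.64% of all genes. The median log2 fold change was -0.01, with 4 genes above 0 and 6 below. The isoxaben and DMSO libraries overlapped in all 10 genes, where 8.19% of all genes did not overlap. CYP94C1 had 16.8, 21.5 and 23.5 CPM in ixr1-1 isoxaben, against 15.1, 18.1 and 20.7 CPM in ixr1-1 DMSO (log2 0.20 ± 0.16, adjusted p = 1). JOX2 averaged 30.5 ± 8.3 CPM in ixr1-1 isoxaben and 30.3 ± 5.9 CPM in ixr1-1 DMSO (SD, n = 3 each). Its 95% interval for the log2 fold change ran from -0.46 to 0.44. For JAR1 that interval was -0.21 to 0.09 and for IAR3 -0.14 to 0.13, whereas for CYP94B3 it was -1.92 to 0.62, too wide to show a difference of the size seen in Col-0.

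The interaction, the isoxaben effect in ixr1-1 minus that in Col-0, tests whether the genotypes responded differently. edgeR called 0 of the 10, against 0.314% of all genes, and DESeq2 called 0. An unadjusted p under 0.05 was found for 1 of the 10, against 4.76% of all genes. That gene was CYP94C1, with a log2 difference of 0.65 ± 0.25 and an adjusted p of 0.867. JOX2 had a difference of 0.54 ± 0.29 (adjusted p = 1) in this fit. With a block by flask, which takes each number of a genotype as 1 flask, JOX2 was called at 0.56 (adjusted p = 0.0252, edgeR). The labels do not tie the numbers to flasks. JOX3 had the highest estimate, with a 95% interval from -0.38 to 2.59. The treatment comparisons and the genotype comparisons share their groups: a low Col-0 isoxaben level enters the effect of isoxaben in Col-0, the genotype difference in isoxaben and the interaction alike. With that adjusted p of 0.867, the folds of CYP94C1 between genotypes, 2.17 in DMSO and 3.40 in isoxaben, were not shown to differ.

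**Figure D3:**
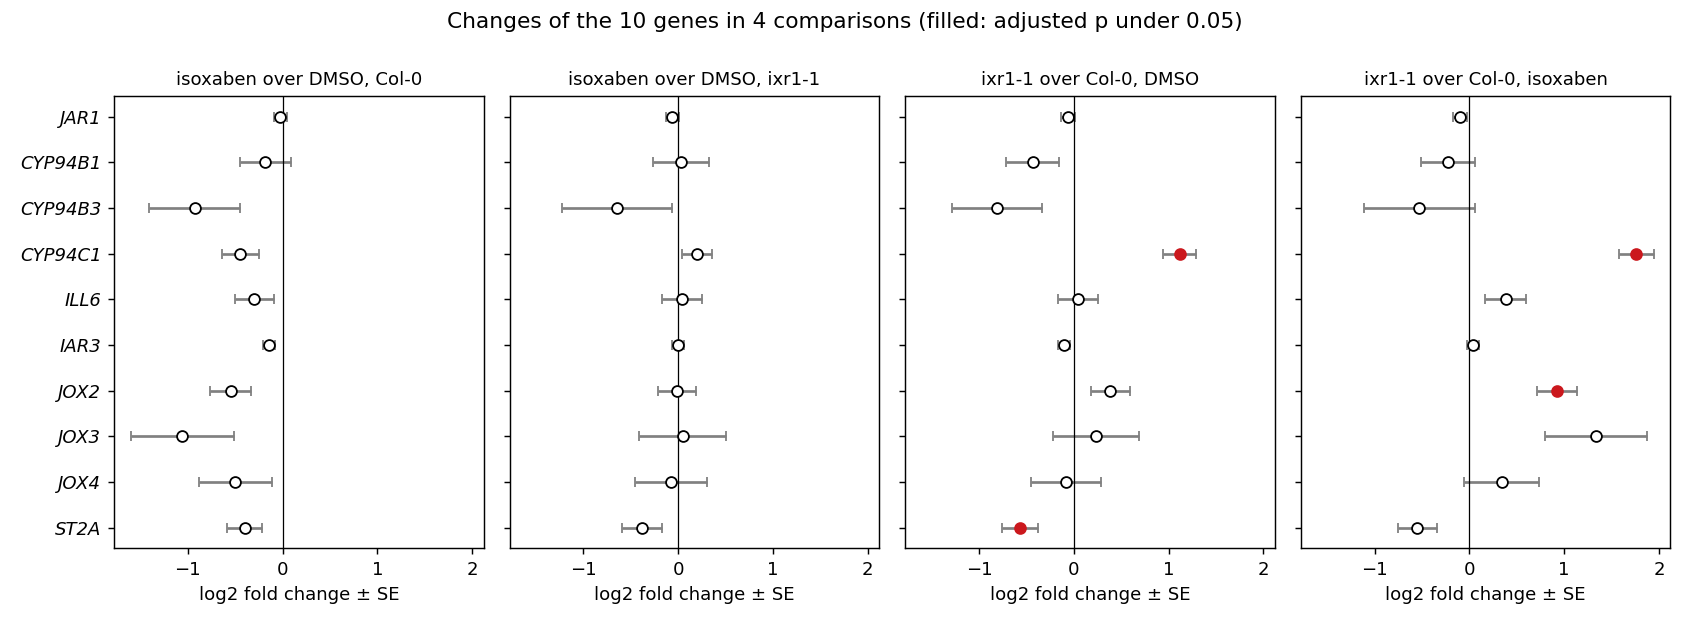
log2 fold change ± SE of each gene for isoxaben over DMSO in Col-0 and in ixr1-1 and for ixr1-1 over Col-0 in DMSO and in isoxaben, with filled points for an adjusted p under 0.05 in edgeR. All 10 points lie below 0 for isoxaben in Col-0 without a call, and the called points are CYP94C1 in both genotype comparisons, ST2A in DMSO and JOX2 in isoxaben.

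Within groups the 10 genes varied together from library to library. A deviation is the log2 CPM of a library minus the mean of its own group. In ixr1-1 isoxaben the mean deviation of the 10 genes was -0.30, 0.42 and -0.12 in libraries 1, 2 and 3, and in ixr1-1 DMSO it was -0.34, 0.39 and -0.05. In Col-0 it was 0.20, -0.09 and -0.11 with isoxaben and 0.08, 0.09 and -0.17 with DMSO. Library 2 thus stood above its group's mean in 10 of 10 genes in ixr1-1 isoxaben and in 9 of 10 in ixr1-1 DMSO, the exception being IAR3. Library 1 stood above it in 0 and 1 of 10. Libraries 1, 2 and 3 totalled 8521491, 20658035 and 10060546 counts in ixr1-1 DMSO, the same order as the mean deviations. In ixr1-1 isoxaben the totals were 10838409, 13648295 and 14558491 counts, a different order. The part of library depth was not tested. Over the 45 pairs of genes, Pearson's r of the deviations was positive in 44, with a median of 0.59 and a range of -0.05 to 0.87 over 12 libraries. The lowest was that of CYP94B3 with IAR3. The median r of each gene's deviations with those of all genes tested lay between -0.05 and 0.00. Positive and negative r offset each other in such a median, so it does not show how often 10 genes vary together this much. All genes share the same libraries, so these values describe the libraries and carry no test.

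Gene by gene, JOX4 had 1.99, 6.30 and 2.51 CPM in ixr1-1 isoxaben and 2.92, 4.92 and 3.12 CPM in ixr1-1 DMSO. CYP94B1 showed the same order, with 5.07, 9.70 and 5.16 CPM and 4.44, 8.78 and 5.16 CPM in those groups. CYP94C1 took the smallest share in this, with a median r of 0.36 to the other 9 genes, and its highest ixr1-1 library was number 3 in both treatments. Highest over lowest library, across all 12, was 1.17-fold for IAR3 and 1.22-fold for JAR1, against 2.75-fold for JOX2, 3.16-fold for JOX4 and 4.36-fold for CYP94C1. The values of 11.3-fold for JOX3 and 17.2-fold for CYP94B3 rest on libraries with as few as 2 counts. Library 2 deviations of the other jasmonate lists follow, where the 10 turnover genes had means of 0.42 in ixr1-1 isoxaben and 0.39 in ixr1-1 DMSO and medians of 0.41 and 0.29. The 21 tested synthesis genes had a mean of 0.09 in ixr1-1 isoxaben and 0.05 in ixr1-1 DMSO, the 23 signalling genes 0.10 and 0.06, and the 9 relatives of the turnover genes -0.04 and -0.06. The 10 jasmonate-inducible targets had means of -0.14 and -0.42 but medians of 0.0092 and -0.06, with 5 and 4 of the 10 above the group's mean. Above that mean in library 2 were also 19 and 17 of the 23 signalling genes, 15 and 13 of the 21 synthesis genes, and 4 and 2 of the 9 relatives. In Col-0 DMSO the signalling genes had mean deviations of 0.08, 0.09 and -0.17 in libraries 1, 2 and 3, like the turnover genes. A positive deviation in ixr1-1 library 2 was thus not particular to the 10 genes, though their means were larger.

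**Figure D4:**
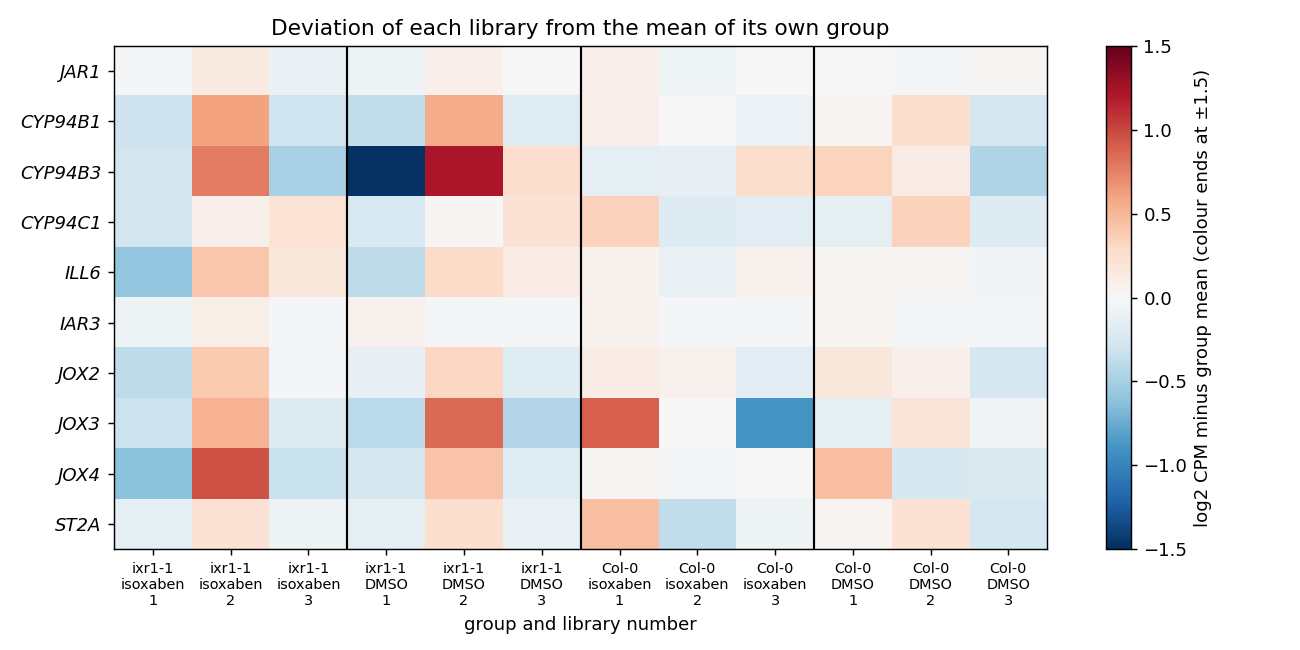
Deviation of each library's log2 CPM from the mean of its own group, for the 10 genes in rows and the 12 libraries in columns, with red above and blue below the mean. The columns of library 2 are red down nearly all rows in both ixr1-1 groups, and those of library 1 blue apart from IAR3 in ixr1-1 DMSO.

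Other genes of the pathway were counted from lists chosen with earlier results of these data known. In JA synthesis, edgeR called 0 of 21 tested genes for isoxaben in Col-0, against 0.78% of all genes. An unadjusted p under 0.05 was found in edgeR for 4, against 6.81% of all genes. DESeq2 called 1, and its share over all genes is not given here. That 1 was LOX4, a lipoxygenase gene of an early step, which had 12.6 CPM on average in Col-0 isoxaben and 6.61 CPM in Col-0 DMSO (log2 0.94 ± 0.20, adjusted p = 0.0575 with edgeR and 0.000798 with DESeq2). It was also called by edgeR without Col-0 isoxaben 3, ixr1-1 DMSO 1 or 3, or ixr1-1 isoxaben 1 or 2. The adjusted p there was 0.0319 to 0.0486, while 7 of 12 such fits gave no call (up to 0.266). With edgeR it was called with only the groups compared (0.0143), without both ixr1-1 libraries numbered 1 (0.0122) and with the flask block (5.85e-05). The remaining alternatives gave no call. The interaction of LOX4 was -1.19 ± 0.28 (adjusted p = 0.145, edgeR). It was called with DESeq2 (0.0068) and the flask block (0.000294, edgeR), but with no single library left out. Between genotypes 3 synthesis genes were higher and 2 lower in ixr1-1 in each treatment, 5 of 21 against 17.2% of all genes in DMSO and 12.8% in isoxaben. Among these, the call of LOX3 ended without any 1 of 6 libraries in DMSO (adjusted p up to 0.171) and of 4 in isoxaben (up to 0.117), and in isoxaben that of AOC1 without any 1 of 5 (up to 0.157) and that of ACX1 without any 1 of 4 (up to 0.147). LOX4 (1.31 ± 0.20, adjusted p = 0.000583) and the CoA ligase gene OPCL1 (0.53 ± 0.08, adjusted p = 7.99e-05) were higher in DMSO. The cyclase gene AOC2 was lower in DMSO (-0.54 ± 0.12, adjusted p = 0.00731) and in isoxaben (-0.67 ± 0.12, adjusted p = 0.00306), all by edgeR. Of 23 signalling genes, 9 were higher and 1 lower in DMSO, against 9.79% and 7.42% of all genes. In isoxaben 7 were higher and 0 lower, against 6.92% and 5.85% of all genes, and the call of JAZ9 was lost without ixr1-1 isoxaben 2 (adjusted p = 0.0529). They included the repressor gene JAZ6 at 0.70 ± 0.09 in DMSO and 0.67 ± 0.09 in isoxaben, and JAZ10 at 1.18 ± 0.17 in DMSO. The median log2 fold change of the signalling genes was 0.19 in both treatments. For isoxaben in Col-0, edgeR called 0 of the 23, against 0.78% of all genes, with 11 estimates above 0 and 12 below. JAZ10 had the smallest p among them, at 0.49 ± 0.18 (adjusted p = 0.409, edgeR). JAZ1 averaged 50.9 CPM in Col-0 isoxaben and 33.4 CPM in Col-0 DMSO, without overlap.

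For each called gene, CYP94C1, JOX2 and ST2A, the 3 genes with the highest Pearson r of log2 CPM over the 12 libraries were listed. For CYP94C1 they were CYP71B3, TPS04 and LRX2, each at r = 0.97. These r values hold the genotype difference, and r of the deviations alone was 0.87, 0.79 and 0.72. For JOX2 they were AT5G44530 at 0.97, AT1G20490 at 0.94 and OPR3 at 0.93. OPR3, which encodes the reductase of jasmonate synthesis, had the highest r of deviations with JOX2 among these 3, at 0.97. For ST2A they were EXL2 at 0.94 and COL5 and RSH2 at 0.93.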

How the data were processed

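Counts of reads per gene, deposited by the authors, came as 1 table per library with 33602 genes and carry no normalization, in featureCounts layout per the file headers. Tools listed in the submitters' processing notes are STAR 2.4.1, featureCounts 1.4.6, FastQC 11.1 and bcl2fastq. Build, annotation and strand setting are, for these tables, not given in the sources used here. Libraries came from 500 ng of RNA and a stranded mRNA kit, per the labels. On TAIR10.1, 18 of 18 gaps between the exons of the 10 genes had GT and AG ends, as had 97.9% of 120747 gaps of all genes. No exon of the 10 overlapped another gene and none had a copy of at least 95% identity. The closest pairs were ST2A with ST2B (89.6%) and IAR3 with ILL5 (88.2%).

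The counts of all 12 libraries entered 1 model with a term per group in edgeR 4.0.16 (filterByExpr, TMM, glmQLFit with robust estimation, glmQLFTest; R 4.3.3, limma 3.58.1). P-values were adjusted over the 20379 tested genes in each of 5 comparisons, with a threshold of 0.05. The log2 CPM behind deviations and r used a prior count of 2. The fit was tested on simulated data. Groups and replicate numbers are those of the labels. The members and the gene lists were chosen with earlier results of these data known. Named genes are all 10, up to 4 called genes per other jasmonate list and comparison with the lowest adjusted p (or, with none called, the 1 of lowest p), and the 3 genes most like each called member. Not all of these are printed. JOX2, JOX3 and JOX4 are names from the gene selection, not RefSeq symbols.

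Alternatives were scaling by library size alone or by DESeq2 size factors, a filter of 1 CPM in 6 libraries or none, DESeq2 1.42.0, a fit of only the groups compared, blocks by replicate number or by flask, and leaving out each library or both ixr1-1 libraries numbered 1. Leaving out both numbered 2 was chosen after seeing the data.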

Additional observations from a re-analysis of the deposited data

How the results depend on the processing

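Of 1065 values of the 10 genes under the alternatives, 984 kept their direction and side of the threshold, 13 gained a call, 13 lost one and 55 changed sign, none of the last called in either fit. For isoxaben in Col-0 the count of called genes was 1 in place of 0 with only the groups compared, with the replicate block by flask and without both ixr1-1 libraries numbered 2, and the gene was JOX2 each time (adjusted p = 0.0251, 0.000976 and 0.0401, edgeR). For the genotypes in DMSO it was 1 in place of 2 with library size alone, with the 1 CPM filter and without both ixr1-1 libraries numbered 1, and 4 without both numbered 2. Leaving out 1 library gave 1 to 3 in DMSO and 1 to 3 in isoxaben. Of all genes, the fits without 1 library called 2281 to 3798 in DMSO and 1549 to 2756 in isoxaben. The 9 other alternatives called 2569 to 4320 of all genes in DMSO and 1741 to 3572 in isoxaben, where the main fit tested 20379. The share of all genes in each single fit is not given here, so these member counts are not read against a background. The labels tie seedlings of a flask to both treatments without tying numbers to flasks, so the reported values come from a fit with no block. Correlation r of the deviations of same-numbered libraries was 0.04, 0.13 and 0.21 between treatments in Col-0, 0.24, 0.31 and 0.03 in ixr1-1, and -0.07 to 0.14 between genotypes. All 6 same-number values between treatments were above 0, not all above 0.1, and 9 of the 12 libraries correlated best with their own number across treatments. Libraries of different numbers had r of -0.16 to 0.04 across treatments in Col-0 and of -0.32 to 0.12 in ixr1-1. Whether the numbers pair libraries within a genotype was not settled by these values. The replicate block by flask, which takes each number of a genotype as 1 flask, called 1 of the 10 genes in the interaction, JOX2 at 0.56 (adjusted p = 0.0252, edgeR). The replicate block by number called 3 in each genotype comparison, adding CYP94B1 in DMSO (adjusted p = 0.0391) and JOX3 in isoxaben (adjusted p = 0.0473). Over all genes, isoxaben in Col-0 called 159, and 77 without Col-0 DMSO 3, 79 without Col-0 isoxaben 2, 243 with only the groups compared and 367 with the flask block. The genotype comparison in DMSO called 3509, and 2281 without ixr1-1 DMSO 2. That in isoxaben called 2602, and 1549 and 1712 without ixr1-1 isoxaben 2 and 3, and 1664 and 1570 without Col-0 isoxaben 2 and 3. The interaction called 64, and 37, 113 and 29 without ixr1-1 isoxaben 1, 2 and 3, 22 without ixr1-1 DMSO 2, 36 without Col-0 isoxaben 2 and 28 without Col-0 DMSO 3, 102 with DESeq2 and 99 and 180 with the blocks by number and by flask. Isoxaben in ixr1-1 called 0, and 1 and 13 with those blocks.

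The values that changed sign were these. With 1 library left out, log2 fold changes for isoxaben in ixr1-1 lay between -0.36 and 0.47 for CYP94B1, -1.25 and 0.46 for CYP94B3, -0.17 and 0.26 for ILL6, -0.051 and 0.033 for IAR3, -0.23 and 0.19 for JOX2, -0.33 and 1.11 for JOX3, and -0.76 and 0.28 for JOX4. For isoxaben in Col-0, JAR1 lay between -0.060 and 0.012. For the genotypes in DMSO, ILL6 lay between -0.13 and 0.20, JOX3 between -0.83 and 0.48 and JOX4 between -0.44 and 0.17, and in isoxaben IAR3 between -0.0094 and 0.075 and JOX4 between -0.34 and 0.59. For the interaction, JAR1 lay between -0.11 and 0.014, CYP94B1 between -0.18 and 0.65, CYP94B3 between -0.32 and 1.39, JOX4 between -0.26 and 0.77 and ST2A between -0.17 and 0.25. For isoxaben in ixr1-1, library size alone gave 0.022 for IAR3 and 0.017 for JOX2, the replicate block by number 0.0071 for JOX2, and that by flask 0.0010 for IAR3, 0.011 for JOX2 and 0.0040 for JOX4. Without both ixr1-1 libraries numbered 1 that comparison gave 0.057 for IAR3, 0.084 for JOX2, -0.0086 for JOX3 and 0.056 for JOX4. In the genotype comparison in DMSO, JAR1 was at 0.0013 with library size alone, JOX4 at 0.044 without both numbered 1, and ILL6 at -0.13 and JOX3 at -0.83 without both numbered 2. In isoxaben, without both numbered 2, IAR3 was at -0.0090 and JOX4 at -0.34. The cause of these moves was not tested. The level order kept its 40 places with library size alone. With 2 counts in their lowest libraries, CYP94B3 and JOX3 are measured with little precision.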

Other observations

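Relatives of the turnover genes that are not among the 10 were also counted. Of 11, 9 had enough counts, and edgeR and DESeq2 called 0 of them for isoxaben in either genotype and 1 lower in ixr1-1 in each treatment, against 7.42% of all genes lower in DMSO and 5.85% in isoxaben. The called gene was CYP94D2, a P450 of the same family, at 30.5 CPM on average in ixr1-1 isoxaben against 41.5 CPM in Col-0 isoxaben (log2 -0.45 ± 0.08, adjusted p = 0.00157) and 32.5 CPM in ixr1-1 DMSO against 44.7 CPM in Col-0 DMSO (log2 -0.47 ± 0.08, adjusted p = 0.000528). For isoxaben in Col-0 the smallest adjusted p among the 9 was 0.957, and their median log2 fold change was 0.04, where the 10 turnover genes had -0.42; the difference between the lists was not tested. None of the 9 had an unadjusted p under 0.05 for isoxaben in either genotype. ST2B, the closest copy of ST2A, had 13.3, 12.8 and 9.64 CPM in ixr1-1 DMSO, against 13.2, 16.9 and 15.6 CPM in Col-0 DMSO. Its groups overlapped, and the log2 fold change of -0.35 ± 0.16 was not called (adjusted p = 0.164, edgeR).

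Of 10 tested jasmonate-inducible targets, 2 were higher and 0 lower in ixr1-1 in each treatment by edgeR, against 9.79% of all genes higher in DMSO and 6.92% in isoxaben. Of these calls, PDF1.2A in DMSO ended without any 1 of 9 libraries (adjusted p up to 0.133), and CLH1 in isoxaben without Col-0 isoxaben 2 (adjusted p = 0.0527). For isoxaben in Col-0, edgeR called 0 of the 10 targets, against 0.78% of all genes. DESeq2 called 1, which was higher, and its share over all genes is not given here. In that comparison 5 estimates were above 0 and 5 below, with a median of 0.01. TAT3, a tyrosine aminotransferase gene, averaged 14.4 CPM in ixr1-1 DMSO and 3.71 CPM in Col-0 DMSO (log2 1.96 ± 0.40, adjusted p = 0.0091, edgeR). Within Col-0, TAT3 was higher in isoxaben, at 10.2 CPM on average, without overlap with DMSO, and edgeR did not call it. VSP1, a vegetative storage protein gene, averaged 5.13 CPM in ixr1-1 isoxaben and 2.24 CPM in Col-0 isoxaben (log2 1.14 ± 0.19, adjusted p = 7e-04, edgeR). In DMSO its averages were 4.85 CPM in ixr1-1 and 3.79 CPM in Col-0, without a call. Within Col-0, VSP1 was lower in isoxaben than in DMSO without overlap, but not called (log2 -0.71 ± 0.20, adjusted p = 0.137, edgeR). The interaction was not called either (0.78 ± 0.26, adjusted p = 0.55, edgeR).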
